A study of Mus musculus with 6 samples.

Results

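Type I interferon-stimulated genes were followed in cultured CD8+ T cells exposed to butyrate. They are 37 named mouse genes that type I interferon induces in many cell types. All 37 were found among the 27179 gene numbers of the count table by symbol or older symbol, and 32 of them held enough reads to be tested. They were not chosen by their values here, although earlier results of these data were known when the list was drawn up. The cells came from spleens of transgenic gBT-I mice, whose CD8+ T cells carry a receptor for a peptide of glycoprotein B of herpes simplex virus. All cultures were activated with that peptide and lipopolysaccharide, fed IL-2 between day 2 and day 5, and collected on day 6. In 3 libraries (butyrate) the cells had also been given butyrate, a bacterial short-chain fatty acid that inhibits histone deacetylases, from day 3, and 3 libraries (control) came from cultures without it. The labels read here state no age of the mice, no butyrate dose and no sort for CD8+ cells, and whole spleen cells entered the culture.

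Type I interferons bind a receptor made of IFNAR1 and IFNAR2, whose kinases JAK1 and TYK2 activate STAT proteins. Among these, STAT2 joins IRF9 in a complex called ISGF3, which binds the interferon-stimulated response element in promoters and switches on the stimulated genes. The products sense viral nucleic acid, block viral entry, translation and budding, or feed back on the pathway, and a basal level of them is kept in resting lymphocytes by weak interferon signalling. Lipopolysaccharide is a known trigger of interferon production by myeloid cells.

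Gene positions are those of RefSeq on GRCm38.p6. The libraries held 5383380 to 6244350 counts. Levels are given as CPM, each library's counts scaled to a common total after trimmed-mean (TMM) scaling, and 3 counts in a library stood at 0.487 to 0.556 CPM. A gene is said to rise or fall where edgeR's quasi-likelihood test over 11740 genes gave an adjusted p under 0.05, and the size is a log2 fold change of butyrate over control. The 13 T cell markers examined summed to 8788 to 9065 CPM in control and 7760 to 9317 CPM with butyrate. Of these, 0 were called higher and 4 lower (30.8%, against 22.5% of all genes tested). The 4 were Trbc1, Cd247, Cd3e and Lck, with log2 fold changes of -1.29, -0.62, -0.61 and -0.43. The largest parts of the sums came from Trac, Thy1 and Trbc2, which did not pass the test. Cd8a (454 ± 62.1 and 436 ± 55.1 CPM, SD, n = 3) did not pass the test.

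Most of the interferon-stimulated genes stood lower with butyrate. Of the 32 tested, 18 fell, 4 rose and 10 did not pass the test, so that 56.2% fell and 12.5% rose, while among all genes tested 22.5% fell and 23.5% rose. With butyrate, 8 of the 32 fell by at least 2-fold, against 391 of the 11740 genes (3.33%). The 18 and the 8 include Rtp4 and Ifit3, which held enough reads to be tested in the control libraries alone. With no filter on low counts, 19 of 37 members fell and 3 rose, beside 2872 and 2961 of 16993 genes. Every butyrate library lay below every control library for 18 members (28.2% of all genes) and above them for 5 (28.9%). The median log2 fold change was -0.67 over the tested members and 0.0034 over all genes. Under upper quartile scaling the calls among all genes moved from 51.1% to 61.8% higher, and the members then counted 16 lower and 6 higher. In bulk RNA, fewer cells of a type and less RNA per cell cannot be told apart.

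**Figure D1:**
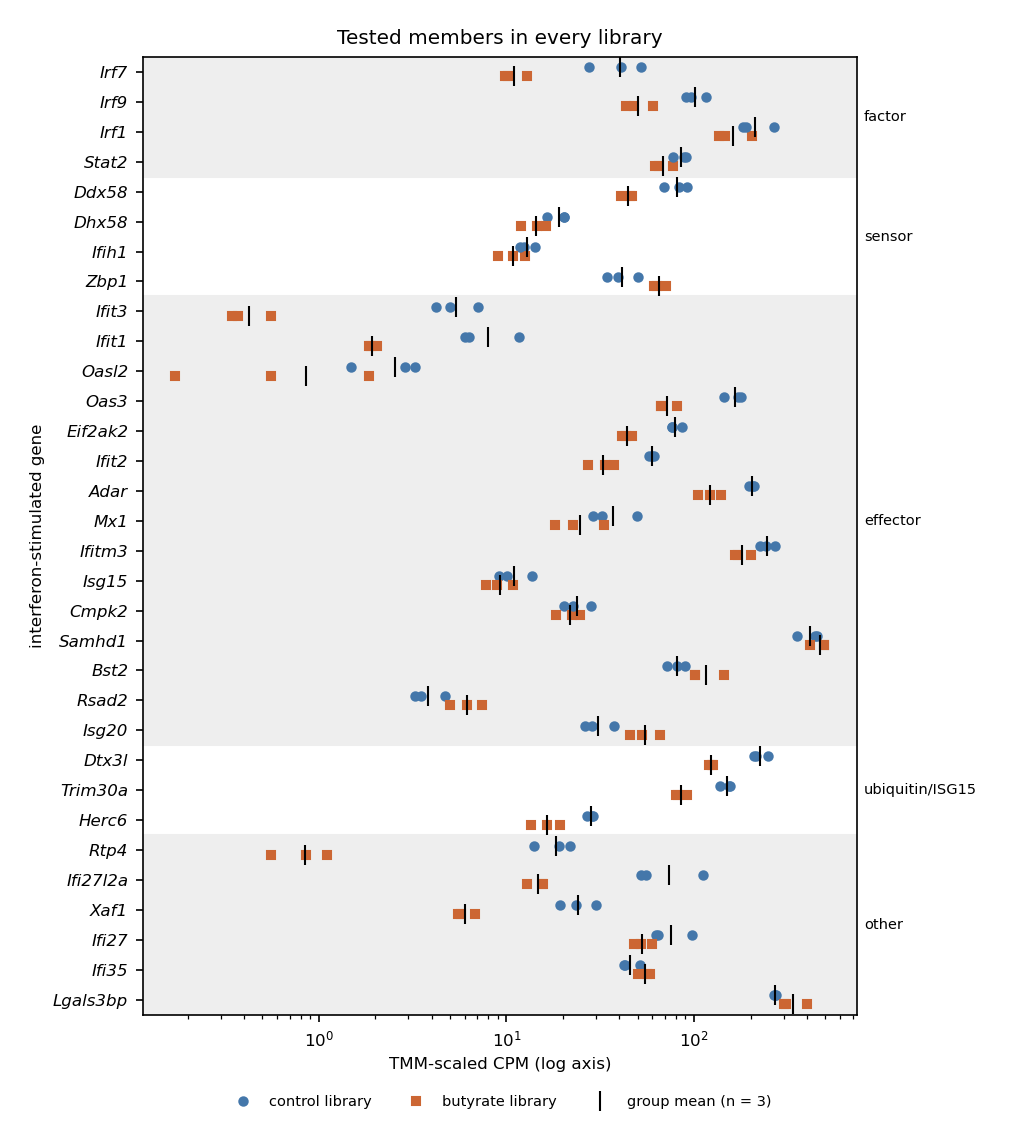
TMM-scaled CPM (log axis) of the 32 tested interferon-stimulated genes, ordered by role, with control libraries as circles, butyrate libraries as squares and group means (n = 3) as bars. The circles and squares part for 23 of the 32 genes. Among all genes tested, 28.2% had every butyrate library below every control library and 28.9% had every one above. The widest gaps are those of Rtp4 and Ifit3, which passed the filter on low counts through the control libraries alone.

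The 5 members under the filter on low counts were Oas1a, Oas2, Oasl1, Usp18 and Ifi44, none with more than 33 counts in a library. Usp18, which encodes the protease that removes ISG15 from proteins and dampens the receptor, held 34 counts in all control and 38 in all butyrate libraries, and Ifi44 held 13 and 2. Without the filter their adjusted p ran from 0.0671 (Oas2) to 0.822 (Usp18). Rtp4 and Ifit3 passed the filter of 10 counts (1.82 CPM) through the control libraries alone.

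Promoters of members with large changes are shown because the element that ISGF3 and the interferon regulatory factors read lies in such windows in many of these genes. RefSeq promoters of GRCm38.p6, 250 bases before to 50 bases after the annotated start, were found for 29 of the 37 members. The response element was searched on both strands as GAAA, any 2 bases and GAAA again, with overlapping matches kept. It was present in a promoter of 13 of the 29 members (44.8%) and in 3.99% of all 27025 genes with a promoter. By call, it was held by 8 of 15 members that fell, 2 of 3 that rose, 2 of 8 that did not pass the test and 1 of 3 not tested. A spacing of 1 base, GAAANGAAA, was added after the sequences were seen and was present in 9 of the 29 members (31.0%) and 3.70% of all genes. The gamma-activated site TTCNNNGAA, read by STAT dimers, stood in 10 of the 29 (34.5%) and 9.55% of all genes. The 8 promoters below belong to members with a mean of at least 10 CPM: the 6 largest changes with the first element, then the 2 largest without it. Rtp4, Ifi27l2a, Ifi27, Zbp1 and 4 other members are not among the promoters used here. Letters are 5′ to 3′ along the gene's strand, and capitals mark the GAAA pairs with a spacer of 2 bases or 1 base, read on either strand.
Oas3: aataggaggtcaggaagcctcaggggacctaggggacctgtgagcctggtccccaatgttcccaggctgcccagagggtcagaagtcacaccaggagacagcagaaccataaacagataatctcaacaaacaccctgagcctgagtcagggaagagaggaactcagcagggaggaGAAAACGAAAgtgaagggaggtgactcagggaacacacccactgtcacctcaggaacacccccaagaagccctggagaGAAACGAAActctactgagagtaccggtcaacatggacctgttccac
Ddx58: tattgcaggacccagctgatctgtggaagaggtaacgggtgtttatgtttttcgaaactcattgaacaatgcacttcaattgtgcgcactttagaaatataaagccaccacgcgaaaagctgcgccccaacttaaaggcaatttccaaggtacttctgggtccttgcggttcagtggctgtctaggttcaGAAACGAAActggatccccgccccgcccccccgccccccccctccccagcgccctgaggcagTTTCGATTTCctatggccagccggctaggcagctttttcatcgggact
Eif2ak2: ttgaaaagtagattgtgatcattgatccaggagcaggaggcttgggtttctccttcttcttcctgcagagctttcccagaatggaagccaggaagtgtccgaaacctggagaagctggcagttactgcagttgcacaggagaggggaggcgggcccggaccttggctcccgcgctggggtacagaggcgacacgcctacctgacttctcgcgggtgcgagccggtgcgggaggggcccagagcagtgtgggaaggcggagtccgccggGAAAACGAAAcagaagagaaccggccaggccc
Trim30a: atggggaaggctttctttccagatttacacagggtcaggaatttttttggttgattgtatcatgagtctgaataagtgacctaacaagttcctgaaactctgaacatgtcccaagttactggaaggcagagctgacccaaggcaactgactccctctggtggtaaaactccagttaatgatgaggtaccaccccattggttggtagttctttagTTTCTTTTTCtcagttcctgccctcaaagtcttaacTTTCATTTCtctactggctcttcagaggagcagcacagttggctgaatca
Bst2: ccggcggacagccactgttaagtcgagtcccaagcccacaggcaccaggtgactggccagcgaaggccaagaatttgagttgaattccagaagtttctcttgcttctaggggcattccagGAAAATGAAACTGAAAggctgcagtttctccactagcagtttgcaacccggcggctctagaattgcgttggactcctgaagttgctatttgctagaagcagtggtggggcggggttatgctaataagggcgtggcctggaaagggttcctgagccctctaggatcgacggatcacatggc
Ifitm3: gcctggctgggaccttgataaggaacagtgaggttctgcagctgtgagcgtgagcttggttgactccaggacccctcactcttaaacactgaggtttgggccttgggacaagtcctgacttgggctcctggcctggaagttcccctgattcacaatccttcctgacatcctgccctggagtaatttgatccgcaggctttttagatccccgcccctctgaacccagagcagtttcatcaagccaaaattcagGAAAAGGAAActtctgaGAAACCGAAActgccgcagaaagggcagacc
Xaf1: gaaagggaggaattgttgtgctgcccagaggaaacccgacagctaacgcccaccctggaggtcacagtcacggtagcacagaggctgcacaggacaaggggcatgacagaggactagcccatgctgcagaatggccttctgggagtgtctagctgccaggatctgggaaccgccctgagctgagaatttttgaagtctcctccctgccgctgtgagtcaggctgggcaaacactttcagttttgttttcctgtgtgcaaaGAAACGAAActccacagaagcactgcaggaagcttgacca
Irf7: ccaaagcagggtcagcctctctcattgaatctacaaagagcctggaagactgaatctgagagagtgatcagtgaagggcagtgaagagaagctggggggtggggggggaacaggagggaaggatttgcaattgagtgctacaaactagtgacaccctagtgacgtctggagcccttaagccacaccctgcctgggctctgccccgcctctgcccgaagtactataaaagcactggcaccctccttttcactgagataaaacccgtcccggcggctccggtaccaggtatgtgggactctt

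These windows lie at chr5:120777610-120777909 (Oas3), chr4:40239776-40240075 (Ddx58), chr17:78882523-78882822 (Eif2ak2), chr7:104465144-104465443 (Trim30a), chr8:71537423-71537722 (Bst2), chr7:141010695-141010994 (Ifitm3) and chr7:141266375-141266674 (Irf7) on the minus strand, and at chr11:72301379-72301678 (Xaf1) on the plus strand. Bst2, which rose, carries a pair of overlapping matches between bases -130 and -115 from the start, and Oas3, which fell, 1 match at -75 to -66. Ddx58, Eif2ak2 and Ifitm3 carry theirs just after the start, within bases 2 to 28. Xaf1, which fell, holds only the shorter spacing, at bases 10 to 18. Isg15, which did not pass the test, held 3 overlapping matches between -78 and -57. Members with the element thus stood among those that fell, rose and did not pass. A match is a description of letters and was not tested for binding.

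**Figure D2:**
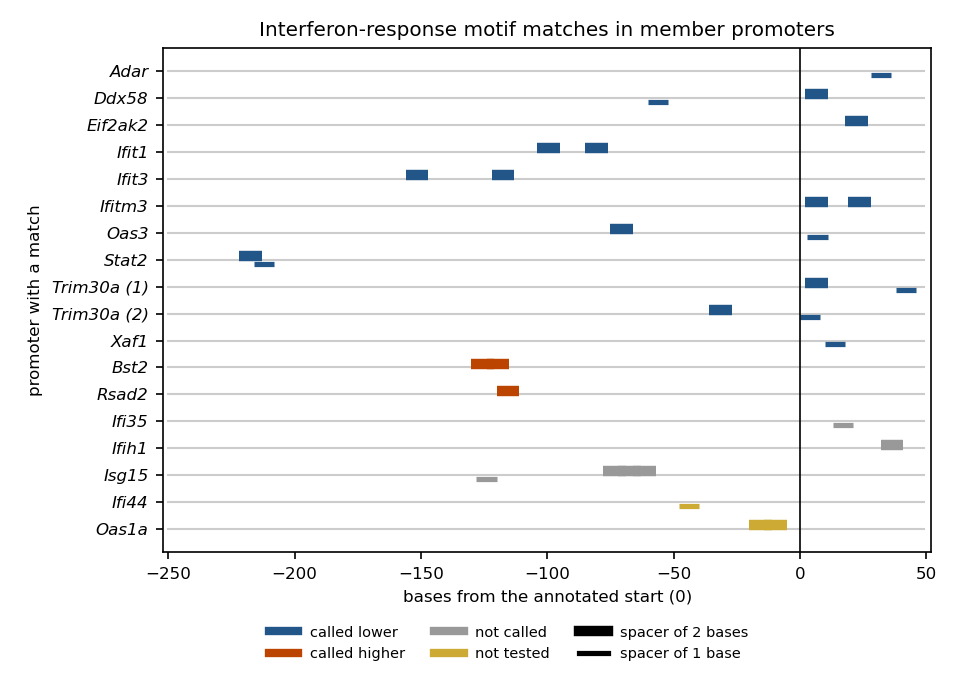
Matches to the GAAA repeat with a spacer of 2 bases (thick bars) or 1 base (thin bars) in the 300-base promoters of members that hold either, by distance from the annotated start and coloured by the member's call. Trim30a has 2 annotated starts. Matches of lower members run from base -222 to base 46, and those of the higher members Bst2 and Rsad2 lie between -130 and -111.

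Among the transcription factors of the list, 3 of 4 fell, beside 22.5% of all genes. Irf7 (chr7:141263183-141266499), which amplifies interferon production, stood at 52.4, 27.4 and 40.7 CPM in control replicates 1 to 3 and 12.9, 10.1 and 9.79 CPM in butyrate replicates 1 to 3. It fell by 1.87 on the log2 scale (SE 0.24, adjusted p = 0.00039), and its groups did not overlap. Irf9 (chr14:55603985-55610030), the DNA-binding subunit of ISGF3, stood at 116, 96.6 and 91.2 CPM in control replicates 1 to 3 and 60.3, 47.97 and 43.2 CPM in butyrate replicates 1 to 3. Every butyrate library of Irf9 lay below every control library (log2 fold change of -1.003 with SE 0.14, adjusted p = 0.0006). Stat2, its partner in ISGF3, was lower by less, and the groups touched. It stood at 88.2, 90.9 and 77.4 CPM in control replicates 1 to 3 and 77.7, 64.99 and 62.1 CPM in butyrate replicates 1 to 3 (log2 fold change of -0.32 with SE 0.11, adjusted p = 0.0381). Its call was lost in 7 of 15 alternatives, where the adjusted p reached 0.118, and among these were the fits without control replicate 1 or 2 or butyrate replicate 2 or 3. Irf1, a factor that both interferon types induce, had 212 ± 46.1 and 162 ± 36.8 CPM (SD, n = 3) with overlapping groups (adjusted p = 0.115). With the replicate number as a block the log2 fold change of Irf1 was -0.39 with an adjusted p of 0.00200, and without butyrate replicate 1 it was -0.59 (0.0211).

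The sensors of viral nucleic acid did not move as a group. Ddx58 (chr4:40203777-40239825), which encodes the RNA sensor RIG-I, stood at 82.8, 69.2 and 91.8 CPM in control replicates 1 to 3 and 46.8, 45.7 and 41.02 CPM in butyrate replicates 1 to 3, with no overlap (log2 fold change of -0.87 with SE 0.12, adjusted p = 0.000533). Ifih1, the gene of the related sensor MDA5, had 12.8 ± 1.27 and 10.8 ± 1.75 CPM (adjusted p = 0.279), and Dhx58, the gene of their regulator LGP2, 18.98 ± 2.25 and 14.3 ± 2.13 CPM (adjusted p = 0.0617, SD, n = 3). Dhx58 passed the test with no filter (0.0467) and without control replicate 3 (0.0458) or butyrate replicate 3 (0.0491). Zbp1 (chr2:173206612-173218959), a sensor of Z-form nucleic acid that can start necroptosis, went the other way. It stood at 50.2, 39.3 and 34.2 CPM in control replicates 1 to 3 and 63.4, 61.2 and 70.96 CPM in butyrate replicates 1 to 3, again with no overlap (log2 fold change of 0.66 with SE 0.14, adjusted p = 0.00489).

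The Ifit genes, whose products bind viral RNA and hold back its translation, fell in all 3 members, beside 22.5% of all genes. Ifit2 (chr19:34550550-34576534) stood at 57.8, 61.02 and 59.7 CPM in control replicates 1 to 3 and 33.7, 37.7 and 27.2 CPM in butyrate replicates 1 to 3 (log2 fold change of -0.86 with SE 0.12, adjusted p = 0.000646). Ifit1 and Ifit3 were scarcer, so their read counts are given. Ifit1 held 65, 34 and 37 counts in control and 11, 11 and 10 with butyrate (log2 fold change -2.04, adjusted p = 0.00147). Ifit3 held 39, 27 and 26 against 3, 2 and 2 counts (log2 fold change -3.61, SE 0.40, adjusted p = 0.000197), and it passed the filter on low counts through the control libraries alone. Their neighbour on chromosome 19, Ifit1bl1, fell by 1.45, while Ifit3b and Ifit1bl2 were too rare to test. The labels do not say how reads that match several related genes were assigned, and values within the Ifit, Oas, Ifitm and Trim families are uncertain for that reason.

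Of the oligoadenylate synthetases, which are switched on by double-stranded RNA, Oas3 carried most of the reads. Oas3 (chr5:120753098-120777684) stood at 172, 144 and 179 CPM in control replicates 1 to 3 and 81.4, 66.7 and 66.5 CPM in butyrate replicates 1 to 3 (log2 fold change of -1.204 with SE 0.12, adjusted p = 0.000115), and its butyrate libraries all lay below the control libraries. In the same cluster on chromosome 5, Oas1b fell by 1.09 (adjusted p = 0.0023), and Oas1c had 20.98 ± 3.14 and 19.6 ± 1.95 CPM (SD, n = 3, adjusted p = 0.62). Oasl2 held 44 counts in all control and 14 in all butyrate libraries (log2 fold change of -1.57, adjusted p = 0.0645). It passed the test with limma voom (0.0428), with the replicate block (0.0179) and without butyrate replicate 3 (-2.77, 0.0120).

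Eif2ak2 and Adar, whose products act on double-stranded RNA, both fell. Eif2ak2 (chr17:78850504-78882572), the gene of the kinase PKR that stops translation, stood at 76.3, 76.2 and 85.8 CPM in control replicates 1 to 3 and 41.2, 46.8 and 43.6 CPM in butyrate replicates 1 to 3 (log2 fold change of -0.86 with SE 0.09, adjusted p = 0.000185). Adar (chr3:89714469-89753455), which edits adenosines, stood at 207, 208 and 195 CPM in control replicates 1 to 3 and 139, 122 and 106 CPM in butyrate replicates 1 to 3 (log2 fold change of -0.74 with SE 0.10, adjusted p = 0.000657). Neither gene's groups overlapped. Ifitm3 (chr7:141009590-141010744), which blocks viral entry, stood at 243, 223 and 271 CPM in control replicates 1 to 3 and 166, 172 and 201 CPM in butyrate replicates 1 to 3 (log2 fold change of -0.45 with SE 0.11, adjusted p = 0.00804). Its fall was smaller, and its neighbours Ifitm2 and Ifitm1 did not share it: Ifitm2 rose by 0.35 (adjusted p = 0.0445) and Ifitm1 did not pass the test (1072 ± 63.4 and 1201 ± 90.6 CPM, SD, n = 3, adjusted p = 0.183).

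The other 3 genes that rose also encode effectors. Isg20 (chr7:78913396-78920396), an exonuclease gene, stood at 26.1, 28.7 and 37.5 CPM in control replicates 1 to 3 and 52.5, 45.6 and 65.6 CPM in butyrate replicates 1 to 3 (log2 fold change of 0.82 with SE 0.17, adjusted p = 0.00444). Bst2 (chr8:71534255-71537472), the gene of tetherin, which holds budding virions at the cell surface, stood at 72.2, 81.6 and 90.03 CPM in control replicates 1 to 3 and 102, 101 and 144 CPM in butyrate replicates 1 to 3 (log2 fold change of 0.51 with SE 0.15, adjusted p = 0.0229). The highest Bst2 value was that of butyrate replicate 3, and without that library its log2 fold change was 0.32 (adjusted p = 0.0511); the call was also lost without control replicate 1 (0.0734) or 2 (0.0617). Rsad2, the viperin gene, rose from 3.82 ± 0.761 to 6.19 ± 1.199 CPM (SD, n = 3, adjusted p = 0.049), a call lost in 7 of 14 alternatives, including the fits without control replicate 2 or 3 or butyrate replicate 2 or 3, with adjusted p up to 0.148. Cmpk2, its neighbour on chromosome 12, which encodes a nucleotide kinase, had 23.7 ± 4.06 and 21.9 ± 3.18 CPM (adjusted p = 0.577). Leaving out control replicate 2 or butyrate replicate 3 brought the number of members that rose from 4 to 2.

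Other effectors did not pass the test. Isg15, the ubiquitin-like modifier that gives the family its name, had 10.9 ± 2.42 CPM in control and 9.204 ± 1.58 with butyrate (SD, n = 3, adjusted p = 0.365). Samhd1, which destroys deoxynucleotides, had 414 ± 53.6 and 469 ± 44.7 CPM (adjusted p = 0.245). Mx1, a dynamin-like GTPase gene, stood at 28.8, 32.5 and 49.96 CPM in control replicates 1 to 3 and 18.1, 22.7 and 33.1 CPM in butyrate replicates 1 to 3 (adjusted p = 0.0857). In each group of Mx1 the third replicate was the highest, and with the replicate block the log2 fold change of Mx1 was -0.59 with an adjusted p of 0.00119. Without butyrate replicate 3 it was -0.86 (0.0267).

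All 3 tested genes of the ubiquitin and ISG15 system fell, by 0.78 to 0.86, beside 22.5% of all genes that fell. Dtx3l (chr16:35926515-35939027), a ubiquitin ligase gene, stood at 249, 214 and 208 CPM in control replicates 1 to 3 and 124, 127 and 120.1 CPM in butyrate replicates 1 to 3 (log2 fold change of -0.86 with SE 0.09, adjusted p = 0.000165). Its partner Parp9, on the opposite strand, fell by 0.82 and Parp14, in the same cluster on chromosome 16, by 1.02. Trim30a (chr7:104409025-104465193) encodes a tripartite-motif protein that restrains NF-kB signalling and stood at 154, 138 and 155 CPM in control replicates 1 to 3 and 80.4, 82.2 and 91.8 CPM in butyrate replicates 1 to 3 (log2 fold change of -0.81 with SE 0.09, adjusted p = 0.000191). Trim12a, Trim12c and Trim34a, which lie beside it on chromosome 7, fell by 1.996, 0.77 and 1.11. Herc6 (chr6:57580992-57665136), the gene of the ligase that attaches ISG15 in mice, stood at 28.8, 28.6 and 26.9 CPM in control replicates 1 to 3 and 16.5, 13.6 and 19.2 CPM in butyrate replicates 1 to 3 (log2 fold change of -0.78 with SE 0.14, adjusted p = 0.00218). No group of these 3 members overlapped. Uba7, which encodes the enzyme that activates ISG15, fell by 1.79 (adjusted p = 0.000521). Ube2l6, also of the ISG15 system, stood higher with butyrate and did not pass the test (5.43 ± 0.653 and 8.75 ± 3.14 CPM, SD, n = 3, adjusted p = 0.0827). Usp18, the member of this system that was not tested, was under the filter on low counts.

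Of 6 tested induced genes outside these systems, 4 fell, beside 22.5% of all genes. Among the 4, Rtp4, Ifi27l2a and Xaf1 changed more than Ifi27. Rtp4 (chr16:23520219-23614222), a chaperone gene of the receptor transporter family, held 122, 76 and 118 counts in control and 6, 5 and 3 with butyrate, and is given in counts although its mean lay below 10 CPM. This was the largest change of the 32 (log2 fold change of -4.42 with SE 0.30, adjusted p = 3.4e-05). Xaf1 (chr11:72301461-72313733), which encodes a partner of the apoptosis inhibitor XIAP, stood at 29.9, 23.4 and 19.3 CPM in control replicates 1 to 3 and 6.84, 5.502 and 5.73 CPM in butyrate replicates 1 to 3 (log2 fold change of -2.000 with SE 0.20, adjusted p = 0.000134). Ifi27l2a (chr12:103433873-103443680), a small mitochondrial protein gene of the ISG12 family, stood at 52.4, 55.5 and 112 CPM in control replicates 1 to 3 and 12.9, 15.5 and 15.7 CPM in butyrate replicates 1 to 3 (log2 fold change of -2.32 with SE 0.30, adjusted p = 0.000417). The groups of Rtp4, Xaf1 and Ifi27l2a lay far apart, and the Ifi27l2a value of control replicate 3 stood above the other two. Ifi27 (chr12:103434189-103440245), of the same family, stood at 62.8, 63.99 and 97.98 CPM in control replicates 1 to 3 and 51.97, 47.8 and 59.5 CPM in butyrate replicates 1 to 3 (log2 fold change of -0.501 with SE 0.18, adjusted p = 0.0441). In RefSeq the span of Ifi27l2a covers that of Ifi27, while their GENCODE exons do not overlap, and how reads were split between them is not known. Control replicate 3 was again the highest, and without it the log2 fold change of Ifi27 was -0.25 (adjusted p = 0.131). Its call was lost in 7 of 15 alternatives, upper quartile scaling and the fits without butyrate replicate 1 or 2 among them, with adjusted p up to 0.136. Lgals3bp, a secreted glycoprotein gene, had 270.4 ± 1.81 and 336 ± 55.1 CPM (adjusted p = 0.0502), and Ifi35 45.8 ± 5.25 and 54.8 ± 4.37 CPM (adjusted p = 0.0845, SD, n = 3). Lgals3bp passed the test, on the higher side, in 8 of 15 alternatives: RLE, upper quartile and total count scaling, the filter of 5 CPM, DESeq2, robust edgeR, the replicate block (0.0245) and the fit without butyrate replicate 1 (0.0272). Ifi35 passed, also on the higher side, in 3 of 15: upper quartile scaling (0.0337), the replicate block (0.0458) and the fit without control replicate 1 (0.0316).

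**Figure D3:**
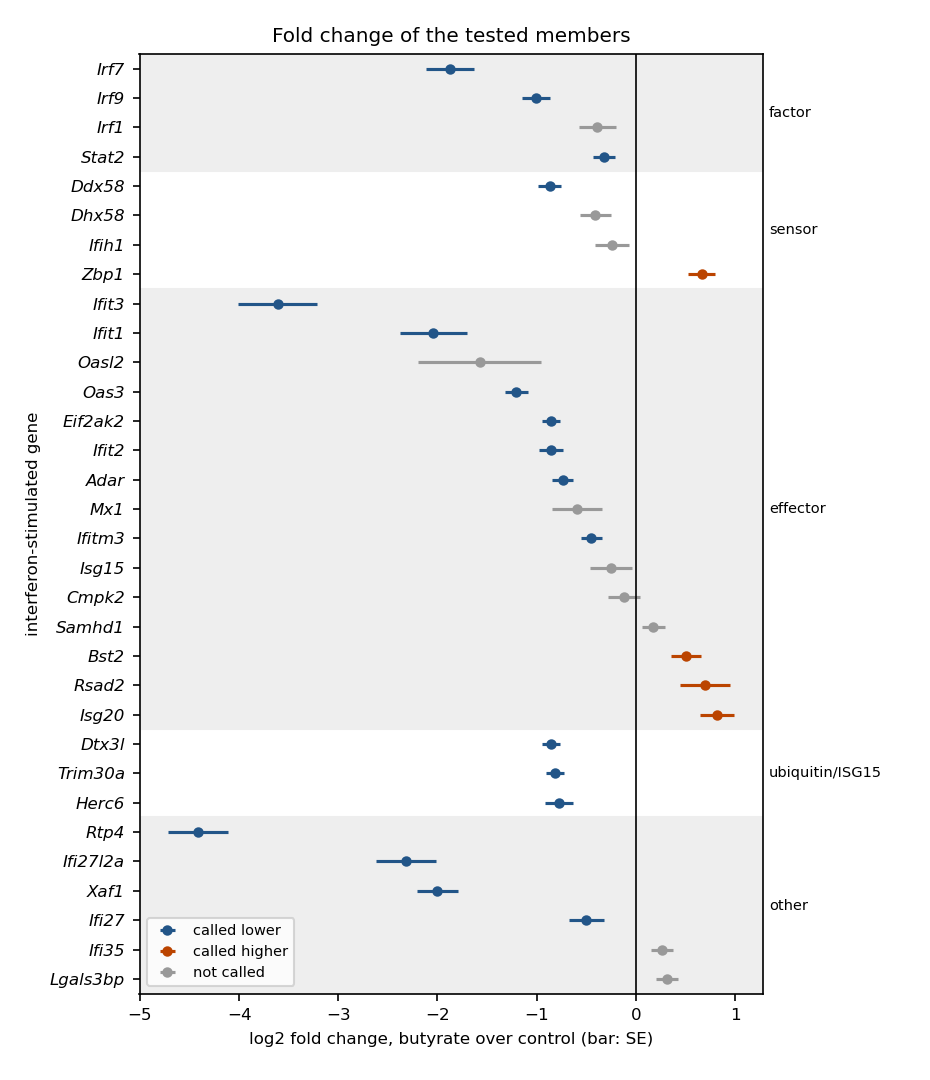
Log2 fold change of butyrate over control with its SE for the 32 tested members, ordered by role and coloured by call. Rtp4 (-4.42), Ifit3 (-3.61) and Ifi27l2a (-2.32) lie farthest to the left, and Isg20 (0.82) farthest to the right.

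Next, the genes that receive and relay the interferon signal were examined. Of 11 tested receptor, kinase and STAT genes, 7 fell (63.6%, against 22.5% of all genes) and 0 rose (against 23.5% of all genes). In this list 1 gene, Stat3, was higher at an unadjusted p under 0.05, and DESeq2 and limma voom also called 0 higher. With upper quartile scaling, no filter, the filter of 5 CPM or the replicate block, 1 gene of the list was called higher. Ifnar2 (chr16:91372783-91405589) stood at 86.4, 89.03 and 74.3 CPM in control replicates 1 to 3 and 37.7, 35.8 and 27.7 CPM in butyrate replicates 1 to 3 (log2 fold change of -1.301 with SE 0.13, adjusted p = 0.000126). Ifnar1 (chr16:91485032-91510523), the other receptor chain, stood at 284, 243 and 222 CPM in control replicates 1 to 3 and 190.5, 145 and 130.5 CPM in butyrate replicates 1 to 3 (log2 fold change of -0.69 with SE 0.15, adjusted p = 0.00546). For both chains every butyrate library lay below every control library. Jak1 stood at 504, 471 and 465 CPM in control replicates 1 to 3 and 399, 380.3 and 399 CPM in butyrate replicates 1 to 3 (log2 fold change of -0.29 with SE 0.08, adjusted p = 0.015), a small fall that was lost with upper quartile scaling (0.0563) and without control replicate 1 (0.0623) or butyrate replicate 2 (0.0507). The other receptor kinase, Tyk2, had 102 ± 9.72 and 92.4 ± 5.77 CPM (SD, n = 3, adjusted p = 0.256). Il10rb and Jak2, which serve other cytokine receptors too, fell by 0.57 and 0.72 (adjusted p = 0.0006 and 0.00108), and the interferon gamma receptor gene Ifngr1 fell by 0.77 (adjusted p = 0.00174).

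**Figure D4:**
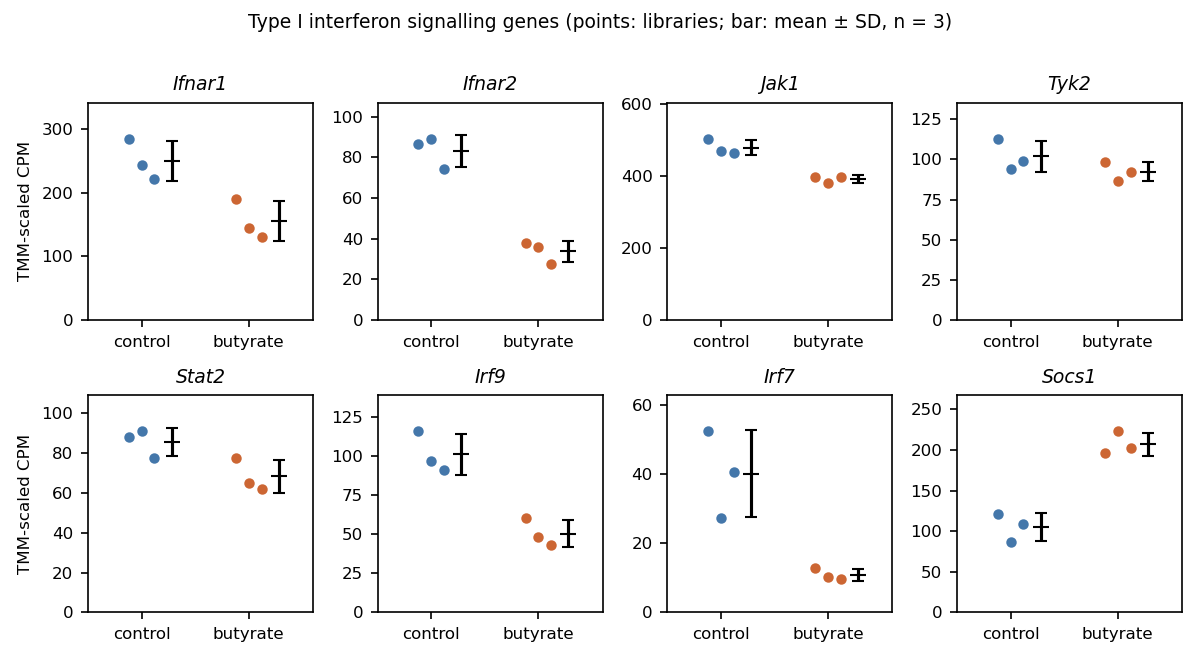
TMM-scaled CPM of 8 genes of type I interferon signalling, each library as a point beside the group mean ± SD (n = 3). The groups part for Ifnar1, Ifnar2, Jak1, Irf9, Irf7 and Socs1 and overlap for Tyk2 and Stat2.

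The interferons themselves were nearly absent from the reads. Of 20 type I and type III interferon genes, 18 had 0 counts in every library, which allows up to 0.487 to 0.556 CPM each, and the other two, Ifnab and Ifnz, had 1 and 1 counts in all control and 7 and 2 in all butyrate libraries. Ifng, the type II interferon gene, stood at 1.26, 4.82 and 11.5 CPM in control replicates 1 to 3 and 10.9, 44.5 and 66.5 CPM in butyrate replicates 1 to 3. It was higher with butyrate by 2.76 (adjusted p = 0.0119), and each butyrate library stood above the control library of the same number, although the groups overlapped. With the replicate block the log2 fold change of Ifng was 2.81 (adjusted p = 7.54e-06). With limma voom (2.87, 0.0539) and robust edgeR (2.76, 0.0563) the size was similar and the call was lost.

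Calls among genes that induce interferon and genes that restrain it went both ways, beside 22.5% lower and 23.5% higher among all genes. Whether the shares of these 2 lists differ from those of all genes was not tested. Of 19 tested induction genes, 6 fell (31.6%) and 5 rose (26.3%). Ikbke, a kinase that activates IRF3, stood at 73.1, 59.2 and 61.6 CPM in control replicates 1 to 3 and 29.96, 32.7 and 30.7 CPM in butyrate replicates 1 to 3 (log2 fold change of -1.05 with SE 0.11, adjusted p = 0.000144), and Tmem173, the gene of the DNA-sensing adaptor STING, and Myd88, an adaptor of Toll-like receptors, fell by 0.86 and 0.47. Tbkbp1, Irf5 and Irf8 rose by 1.37, 1.38 and 1.11, and Irf3 did not pass the test (77.9 ± 11.1 and 74.98 ± 1.22 CPM, SD, n = 3, adjusted p = 0.702). Of 18 restraining genes, 6 fell (33.3%) and 4 rose (22.2%). Socs1, which encodes a direct inhibitor of JAK kinases, stood at 121, 86.8 and 108 CPM in control replicates 1 to 3 and 196, 223 and 203 CPM in butyrate replicates 1 to 3 (log2 fold change of 0.97 with SE 0.12, adjusted p = 0.000375), with every butyrate library above every control library. Socs3 and the phosphatase gene Ptpn1 rose by 1.03 and 0.73, while the phosphatase gene Ptpn6, Pias3 and Rnf125 fell by 1.04, 0.97 and 0.88.

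A further 60 interferon-stimulated genes were listed, and 53 of them were tested. In this list 30 fell (56.6%) and 7 rose (13.2%), with a median log2 fold change of -0.55, beside 56.2% and 12.5% of the members. Among all genes tested 22.5% fell and 23.5% rose. This list, too, was chosen with earlier results of these data known, and it holds chromosomal neighbours of members, so it is not an independent set. Trim34a, the large ubiquitin ligase gene Rnf213 (from 367 ± 19.2 to 183 ± 20.2 CPM, SD, n = 3) and Parp9 had the smallest p among those that fell. Phf11b, N4bp1 and the chemokine gene Ccl5 (from 51.9 ± 17.99 to 226 ± 71.7 CPM) had the smallest among those that rose, by 0.58, 0.65 and 2.12.

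**Figure D5:**
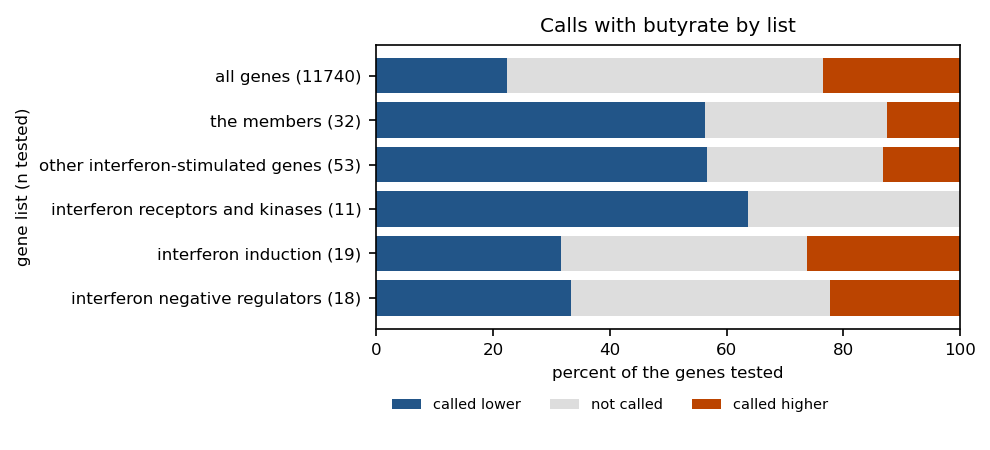
Percent of tested genes called lower (blue), not called (grey) and called higher (orange) with butyrate, for all genes and each list, with the number tested in brackets. Lower calls made up 22.5% of all genes and 56.2% of the members, and 7 of 11 receptor and kinase genes.

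Markers of other spleen cells were also examined, and their calls stand beside 23.5% of all genes tested that rose. Plasmacytoid dendritic cells, known for high Irf7 and Bst2, were sought with 9 markers, which summed to 98.9 to 120 CPM in control and 139 to 145 CPM with butyrate. Their defining marker Siglech had 0 counts in every library, most of the sum came from Runx2, which T cells also express, and 2 of the 3 tested rose. The 15 macrophage and dendritic cell markers summed to 45.8 to 110 CPM and 131 to 164 CPM, with 2 of 7 tested higher, Zbtb46 and Itgam (4.08 ± 0.682 and 44.1 ± 9.50 CPM, SD, n = 3). Itgam alone made up the largest part of the difference between these sums. The other 5 tested, Lyz2 (22.5 ± 20.1 and 25.0 ± 13.9 CPM, adjusted p = 0.874), Itgax, Ctss, Cd68 and Fcgr3, did not pass the test. Adgre1, Fcgr1, Xcr1, Clec9a and Flt3 had at most 3 counts in any library. B cell markers summed to 15.4 to 21.2 and 14.2 to 22.4 CPM, with overlapping ranges, and NK cell markers to 11.5 to 20.6 and 21.6 to 33.0 CPM. Most of the NK sum came from Klri2 and Klrb1c, while Ncr1, Klra8 and Klra4 had at most 1 count in a library. B cell gene Pax5 and granulocyte gene Camp had 0 counts in every library. The granulocyte sum was 0 to 1.46 CPM in control and 3.51 to 8.32 CPM with butyrate, mostly from Cxcr2 (0, 1 and 0 against 17, 25 and 31 counts), while the other 7 granulocyte genes had at most 5 counts in a library. The erythroid sum was 0.186 to 0.900 and 1.72 to 26.2 CPM, highest in butyrate replicate 3. The part of these cells in the values above was not tested.

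Some members share exon sequence with another gene, and the strand setting of the counting is not stated in the labels. Dtx3l and Parp9 share 458 exon bases (8% of the Dtx3l exons) on opposite strands. Adar shares 1365 (16.8%) with Chrnb2, which held 21 to 48 counts in a library, Irf7 shares 45 with Phrf1, and Irf9 shares 123 with Rnf31. The other overlaps found were with genes that are not rows of the count table used here. Reads in these stretches cannot be told apart.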

How the data were processed

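Counts deposited by the authors (unnormalised, 1 row per gene number) were used for 6 libraries, made with an Illumina TruSeq kit from 1 µg of total RNA, per the labels' protocols. Per the submitters' processing notes, the tools were edgeR, Subread, featureCounts, Picard, TopHat and CASAVA, without versions, and the build mm10. Their roles, parameters and strand setting: not given in the sources used here. Of 27179 gene numbers, 25275 were named from RefSeq (GRCm38.p6, the assembly of mm10) and 18 from GENCODE M21; the 1886 others stayed in the tests. Exon lengths and overlaps come from GENCODE M21, promoters from RefSeq.

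Butyrate was compared with control by edgeR 4.0.16 (R 4.3.3; quasi-likelihood F test, TMM, filterByExpr with a minimum count of 10, Benjamini-Hochberg adjustment over 11740 genes). SE is the absolute log2 fold change over the square root of F. The procedure was checked on simulated libraries, with equal numbers of genes raised and lowered 2-fold and independent replicates. That setting differs from these data, so the check does not measure error rates here. Labels do not tie replicates to separate mice or cultures, so p-values measure the spread between these libraries, which may be technical. No molecular identifiers are described, and limits from counts cover counting error only. No pair of libraries within a group looked like a repeat of 1 library (5.69 to 11.4 chi-square units per degree of freedom). Libraries with the same replicate number deviated together (correlation of deviations from group means 0.36, 0.20 and 0.35, against -0.30 to -0.075 for other pairs), a pairing that comes from the data, not from the labels; a fit with this block is given where it changed a call.

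Members and lists were chosen with earlier results of these data known. Called members with a mean of at least 10 CPM are given per library. Named pathway genes are Ifnar1, Ifnar2, Jak1, Tyk2, Irf3 and Socs1, and up to 3 called genes per list and direction with the smallest p. Genes named after their values were seen include Ifngr1, Ifnab, Ifnz, Uba7, Ube2l6 and neighbours of members. A few listed genes are not reported here. Alternatives were scaling by upper quartile, by RLE or by total count, robust edgeR, DESeq2 1.42.0, voom from limma 3.58.1, no filter, a filter of 5 CPM in at least 3 libraries, the replicate block and each library left out.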

Additional observations from a re-analysis of the deposited data

How the results depend on the processing

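Over 15 alternatives no called member changed direction. Of the 18 members that fell, 16 passed the test in every alternative that tested them, and Stat2 and Ifi27 did not. Of the 4 that rose, Isg20 and Zbp1 did, and Bst2 and Rsad2 did not. Another 6 members passed in at least 1 alternative. The number of members that fell ran from 15 (at least 5 CPM in 3 libraries, which tests 29 of them) to 21 with the replicate block, and from 16 to 20 with a library left out. The number that rose was 6 with the replicate block and 2 to 5 with a library left out, and the cause of these changes was not tested. With the block 3220 genes rose and 3095 fell, against 2756 and 2637 without it. Ifng, the interferon gene that rose, was no longer called with limma voom or robust edgeR, leaving 0 interferon genes. In the receptor and kinase list 1 gene rose with upper quartile scaling, the filter of at least 5 CPM and the replicate block (Stat3), and 1 with no filter (Ifnlr1, with 1 count in control and 48 with butyrate). Upper quartile scaling moved the median of all genes by 0.0821 on the log2 scale. The response element with a spacer of 1 base in place of 2 was found in 9 members in place of 13. The filter on low counts, not the test, left out 5 members. Without it all 37 were tested, and of these 5 none passed (adjusted p 0.0671 to 0.822).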

Other observations

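Levels of the members were also set side by side per kilobase of exon. In control, Ifitm3 was the most abundant at 362 CPM per kilobase, followed by Ifi27l2a (158), Lgals3bp (94.99) and Bst2 (90.01). With butyrate, Ifitm3 was still first (265), Bst2 second (128) and then Lgals3bp (118), while Ifi27l2a stood at 31.8, rank 7. At the other end, Ifi44, Oasl2, Oasl1 and Oas2 were below 0.5 CPM per kilobase in control. Isg15 ranked 17 in control at 14.5 CPM per kilobase.

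Control libraries differed among themselves in these genes. The SD of the control libraries was 45.95% of the mean for Ifi27l2a, 40.1% for Ifit1, 31.05% for Irf7 and 30.5% for Mx1, and 2.73% for Ifit2. Control replicate 1 was the highest control library for 17 of the 32 tested members, Ifit1 and Irf7 among them, and control replicate 3 for 11, Ifi27l2a and Mx1 among them.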
